A study of Mus musculus with 13 samples.

Results

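Voltage-gated sodium and calcium channel genes were taken from the count table by symbol, as every Scn gene whose number is followed by a or b and every gene whose symbol begins with Cacna, Cacnb or Cacng. This gave 39 of the 53653 genes in the table, 13 Scn genes and 26 Cacn genes. By subunit they were 9 sodium channel alpha subunits, 4 sodium channel beta subunits, 10 calcium channel alpha1 subunits, 4 alpha2delta subunits, 4 beta subunits and 8 gamma subunits. Of the 39, 37 passed the filter on low counts and were tested, and Cacng1 and Cacng6 were not. The neuronal sodium channel gene listed under the older symbol Scn2a1 is not taken by this rule, because its symbol ends in a number.

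The libraries came from mouse medulloblastoma, a tumour of the cerebellum, in animals carrying SmoM2, an active form of Smoothened that drives the Sonic Hedgehog pathway, and all 3 groups carried it. KO metastasis (n = 4 libraries) was taken from spinal cord metastases and KO primary (n = 4) from primary cerebellar tumours, both in SmoM2 mice with Kmt2d knocked out (named Kmt2d Cf/Cf in the labels) aged 5 to 8 weeks. Control primary (n = 5) was taken from primary cerebellar tumours of SmoM2 mice with no Kmt2d knockout, aged 6 to 16 weeks. KMT2D is a histone methyltransferase that acts at enhancers, and the drivers of SmoM2, the knockout and GFP are not given in the sources. GFP-positive tumour cells were sorted, and RNA was sequenced in bulk from frozen pellets of 0.1 to 3 M cells for metastases and 1 to 5 M cells for primary tumours. No label tells whether 2 libraries share a mouse, so the p-values speak of the variation among these libraries, which may be technical.

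A voltage-gated channel opens when the membrane depolarizes. The alpha subunit of a sodium channel and the alpha1 subunit of a calcium channel form the pore, and beta and alpha2delta subunits carry it to the membrane and tune its gating. In the cerebellum these channels carry the action potentials and the transmitter release of granule neurons, the cells that granule cell precursors become, and most of the gamma family there serves AMPA-type glutamate receptors rather than calcium channels.

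Total counts ran between 27.1 and 40.8 M in KO metastasis, 35.2 and 41.4 M in KO primary and 23.5 and 37.5 M in control primary libraries. Levels are given in CPM, counts set to the same library total after TMM scaling. Kmt2d itself stood at 105 to 131 CPM in KO metastasis, 91.7 to 168 CPM in KO primary and 78.1 to 175 CPM in control primary libraries, counted over the whole gene, and such a count says nothing of a deleted part. Olfactory and vomeronasal receptor genes, which these cells should not use, drew 544 and 332 CPM from KO metastasis 6 and 7, 696 from KO primary 7 and 1680 from control primary 3, against 5.59 to 81.3 CPM in the other 9 libraries. These 4 libraries are called high-background libraries here, and results that rest on them are given with and without them. KO metastasis 3 stood apart by 2.06% of its counts on mitochondrially encoded genes. Xist, a transcript of female cells, was high in control primary 5, 6 and 7 alone, so the sexes were not balanced between the groups. The labels place these cells among granule cell precursors, and a list of 8 precursor markers that includes Atoh1 summed to 4397 to 5799 CPM in KO metastasis, 4437 to 5407 CPM in KO primary and 3030 to 4419 CPM in control primary libraries.

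Start regions are shown for Cacna2d3 and Cacnb1, the channel genes whose change passed the test, for Cacnb4, the calcium channel gene with a match to the letters bound by GLI, the factor of the Hedgehog pathway, and for Scn10a, a gene near 0 in most libraries. Each runs from 250 bases before to 50 bases after a RefSeq start on GRCm38.p6, is written on the strand of the gene (all 4 lie on the minus strand), and has in capitals the matches to the GC box GGGCGG, the E-box CAGCTG and the GLI consensus GACCACCCA on either strand, where overlapping GC boxes count separately. They lie at chr14:29721815-29722114, chr11:98022578-98022877, chr2:52675810-52676109 and chr9:119718983-119719282, in the order printed.
Cacna2d3: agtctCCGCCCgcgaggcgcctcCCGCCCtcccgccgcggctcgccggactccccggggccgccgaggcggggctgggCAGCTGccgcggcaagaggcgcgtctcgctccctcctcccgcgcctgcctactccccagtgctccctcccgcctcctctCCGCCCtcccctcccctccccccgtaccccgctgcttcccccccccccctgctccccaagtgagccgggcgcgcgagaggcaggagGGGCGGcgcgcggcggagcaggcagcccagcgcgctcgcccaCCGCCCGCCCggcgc
Cacnb1: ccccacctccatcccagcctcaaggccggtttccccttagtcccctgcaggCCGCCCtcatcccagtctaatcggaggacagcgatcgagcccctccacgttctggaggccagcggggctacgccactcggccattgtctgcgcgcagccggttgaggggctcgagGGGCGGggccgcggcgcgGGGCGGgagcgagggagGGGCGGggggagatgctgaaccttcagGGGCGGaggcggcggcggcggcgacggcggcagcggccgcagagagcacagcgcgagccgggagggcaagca
Cacnb4: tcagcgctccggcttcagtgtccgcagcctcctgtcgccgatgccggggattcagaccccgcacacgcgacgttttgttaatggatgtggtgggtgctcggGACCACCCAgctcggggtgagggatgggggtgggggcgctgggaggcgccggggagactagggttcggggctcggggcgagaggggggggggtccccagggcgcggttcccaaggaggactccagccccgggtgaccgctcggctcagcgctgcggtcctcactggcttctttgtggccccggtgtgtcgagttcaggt
Scn10a: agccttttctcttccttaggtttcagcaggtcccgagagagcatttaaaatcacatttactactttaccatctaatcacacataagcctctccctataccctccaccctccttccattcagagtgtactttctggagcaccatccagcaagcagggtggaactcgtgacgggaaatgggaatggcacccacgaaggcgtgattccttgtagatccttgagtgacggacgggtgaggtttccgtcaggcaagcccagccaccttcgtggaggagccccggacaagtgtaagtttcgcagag
The starts of Cacna2d3, Cacnb1 and Cacnb4 held 41, 34 and 27 CpG dinucleotides and 81.3%, 73.7% and 69.7% G or C, against 11 CpG and 51.7% at Scn10a. Cacna2d3 held 6 GC boxes and 1 E-box, Cacnb1 held 5 GC boxes, and Scn10a held none of the 3 motifs. The GLI letters of Cacnb4 began 149 bases before this start, which is 1 of its 3 RefSeq starts.

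RefSeq starts were found for 29 of the 39 channel genes, 39 starts in all. The GLI letters were present in 2 of the 39, in Cacnb4 and in the muscle channel gene Scn4a, and in 0.253% of the 32851 starts of all genes. The GC box was in 41% of the channel starts and 35.7% of all starts, and the E-box in 33.3% and 16.3%. A match is a description of letters and not of a bound site. With the most CpG-rich start taken for each gene, the 13 channel genes with a start and a mean of at least 5 CPM had a median of 35 CpG (range 9 to 63), the 7 with a start and over 80% of their CPM in the high-background libraries had a median of 8 (range 3 to 26), and all 27025 genes had a median of 8.

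Set per kb of exon, so that genes of different length can be compared, the members spanned a wide range of levels. The order that follows uses the mean over all 13 libraries in CPM per kb. Cacng2, which codes for stargazin, a protein that brings AMPA receptors to the synapse, came first at 23.4 CPM per kb, followed by Cacna2d1, the alpha2delta subunit that binds gabapentin, at 19.0. Below them lay the gamma subunit genes Cacng5 at 7.35 and Cacng4 at 5.51, and Scn8a, the sodium channel of mature axons, at 5.61. The presynaptic calcium channels Cacna1b (N type) and Cacna1a (P/Q type) stood at 3.38 and 2.99 CPM per kb, and the beta subunit gene Cacnb3 at 3.84. The leading sodium beta subunit gene was Scn3b at 2.53. Of the 39 genes, 17 had a mean of at least 5 CPM and 22 lay under it, and the lowest was Cacng6 at 0.0289 CPM per kb.

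**Figure D1:**
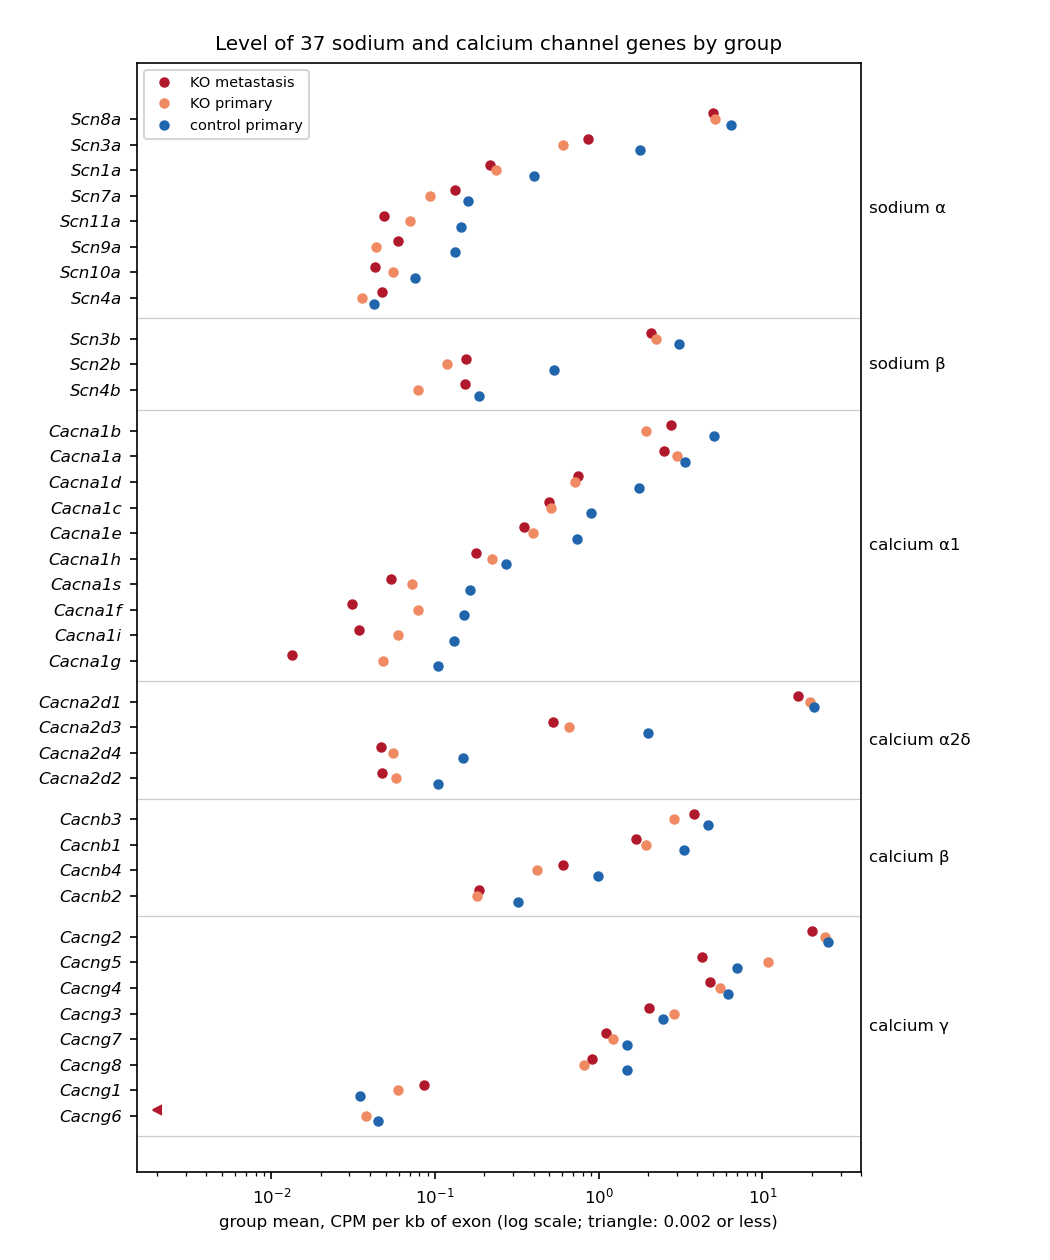
Group mean level of 37 of the 39 channel genes in CPM per kb of exon on a log scale, in subunit classes, for KO metastasis (n = 4), KO primary (n = 4) and control primary (n = 5) libraries. Cacng2 and Cacna2d1 lie highest in all 3 groups, and most genes have their control primary point to the right of both knockout points.

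Among calcium channel genes, the alpha2delta gene Cacna2d3 was lower in both knockout groups than in control primary tumours, and the beta gene Cacnb1 was lower in KO metastases. Alpha2delta subunits raise the number of channels at the membrane and beta subunits bind the pore from inside the cell. A gene is called here where its edgeR p-value, adjusted over all genes tested, is below 0.05, and no channel gene was called higher. The KO metastasis and KO primary results share the same control libraries, so they are given side by side and are not independent of each other.

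Cacna2d3 (chromosome 14, 28904943 to 29721864, minus strand, on GRCm38) stood at 1.72, 4.88, 7.34 and 4.32 CPM across KO metastasis 3, 4, 6 and 7, at 3.96, 5.60, 6.08 and 7.15 CPM across the same numbers of KO primary, and at 10.7, 19.2, 27.6, 15.5 and 14.2 CPM across control primary 3 to 7. Every knockout library lay below every control library, and the lowest control was the high-background control primary 3. The means were 4.56 ± 2.30 CPM in KO metastasis and 5.70 ± 1.33 in KO primary against 17.4 ± 6.44 CPM in control primary libraries (SD, n = 4, 4 and 5). The log2 change was -1.93 (SE 0.380, edgeR adjusted p = 0.0134) for KO metastasis and -1.61 (SE 0.375, edgeR adjusted p = 0.0332) for KO primary. The KO metastasis call was kept in all 13 fits that left out 1 library, where the highest edgeR adjusted p was 0.0483. It was lost without the 3 controls with Xist counts, a fit that left control primary 3 and 4 as the controls (edgeR adjusted p = 0.242). It was also lost in the libraries with shared numbers fitted with no block (edgeR adjusted p = 0.0521). The KO primary call was lost in 7 of the 13, without KO metastasis 7, KO primary 3, 4 or 6, or control primary 4, 5 or 6, with edgeR adjusted p up to 0.132, and without the controls with Xist counts (edgeR adjusted p = 0.398).

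Cacnb1 (chromosome 11, 98001508 to 98023034, minus strand) stood at 6.07, 7.59, 6.88 and 10.3 CPM across KO metastasis 3, 4, 6 and 7, at 8.80, 8.49, 7.67 and 10.1 CPM across the same numbers of KO primary, and at 11.6, 15.6, 17.3, 13.4 and 17.0 CPM across control primary 3 to 7. Every knockout library again lay below every control library, the 2 knockout groups overlapped each other, and the highest library of each knockout group and the lowest control were high-background ones. KO metastasis differed by -0.96 on the log2 scale (SE 0.199), which edgeR called (adjusted p = 0.0179). KO primary differed by -0.77 (SE 0.198) and was not called (edgeR adjusted p = 0.0546). The KO metastasis call was lost in 5 of 13 fits that left out 1 library, without KO metastasis 3, 4 or 6 or control primary 4 or 7, with edgeR adjusted p up to 0.0770. It was also lost without the controls with Xist counts (edgeR adjusted p = 0.568) and in the libraries with shared numbers, with the replicate block (edgeR adjusted p = 0.0678) and with no block (0.0802).

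**Figure D2:**
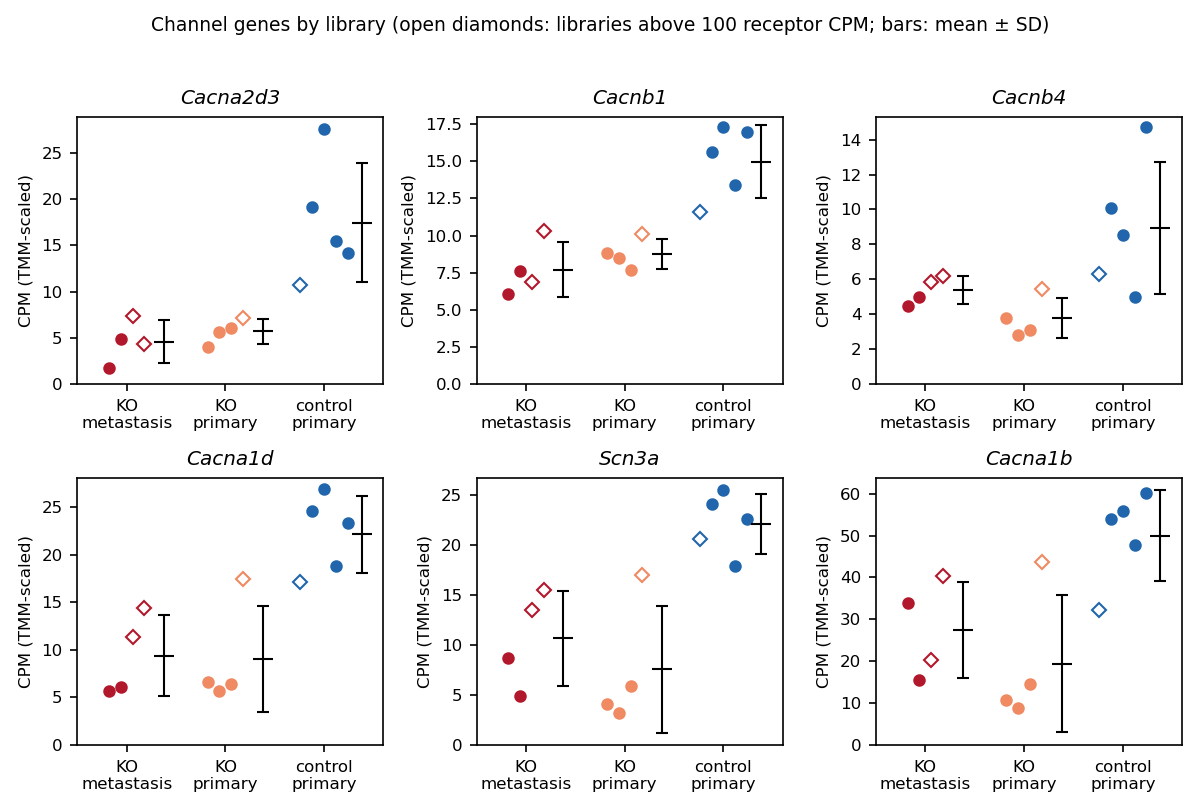
Level in CPM of 6 calcium and sodium channel genes in every library, with KO metastasis, KO primary and control primary from left to right, open diamonds for the 4 high-background libraries and bars for the mean ± SD. For Cacna2d3, Cacnb1 and Scn3a both knockout groups lie below every control and overlap each other, while for Cacna1b and Cacna1d the open diamond of KO primary 7, at 43.6 and 17.4 CPM, lies far above the other KO primary libraries.

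Read against all genes, the calls were few. In KO metastasis against control primary, 2 of 37 tested channel genes were lower and none higher, where 2.02% of all 22265 tested genes were lower and 3.08% changed in either direction. In KO primary against control primary 1 of 37 was lower and none higher, where 1.78% of all genes were lower and 2.93% changed in either direction. At an unadjusted p below 0.05 there were 10 channel genes for KO metastasis (3170 of all genes) and 11 for KO primary (3020 of all genes). The direction was lopsided: 36 of 37 channel genes had a negative log2 change in KO metastasis and 35 of 37 in KO primary, against 53.4% and 54.4% of all genes tested. The median log2 change over the 37 was -0.86 in KO metastasis and -0.84 in KO primary, and over all genes -0.04 and -0.05. Without control primary 3 the negative changes were 30 of 35 in KO metastasis (median -0.70) and 25 of 35 in KO primary (median -0.55). Without KO primary 7 the KO primary median was -1.45, with 35 of 37 negative. Without all 4 high-background libraries 31 of 32 were negative in KO metastasis (median -1.09) and 29 of 32 in KO primary (median -0.93). Limma voom gave 27 of 37 negative in KO metastasis (median -0.43) and 29 of 37 in KO primary (median -0.83). The libraries of 7 members did not overlap in KO metastasis and were lower there (Cacna1c, Cacna1d, Cacna2d3, Cacnb1, Cacng8, Scn3a and Scn3b), where 4.01% of all genes did so. In KO primary 4 members did so (Cacna2d3, Cacnb1, Cacng8 and Scn3a), where 3.85% of all genes did so, and no member lay wholly higher in either comparison. In bulk samples fewer cells of a type and less RNA per cell cannot be told apart.

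**Figure D3:**
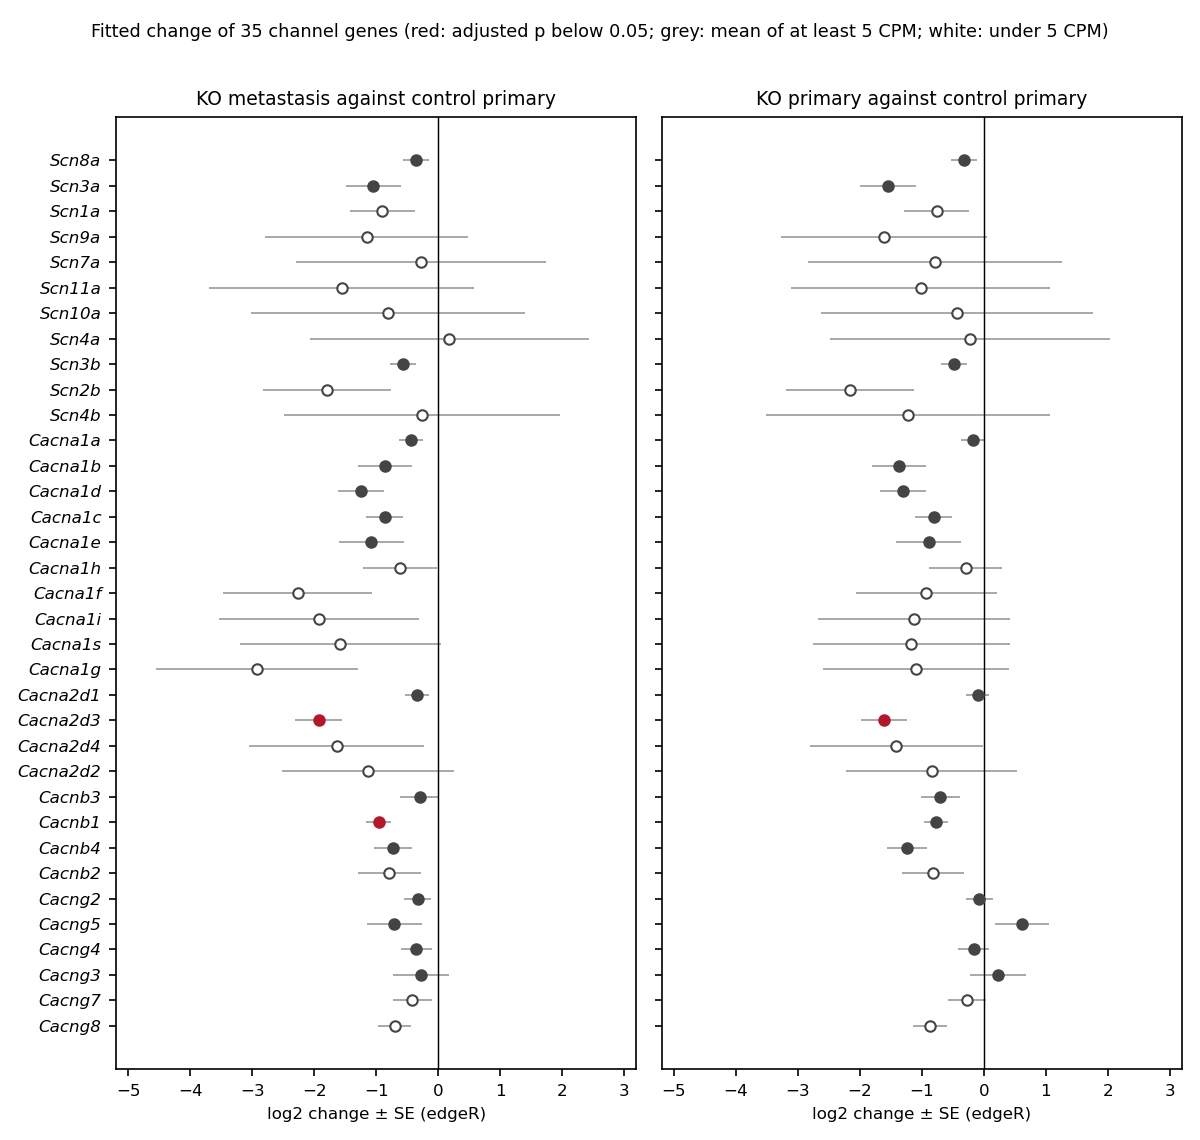
Fitted log2 change ± SE of 35 of the 37 tested channel genes for KO metastasis (left) and KO primary (right) against control primary, with called genes in red, other genes with a mean of at least 5 CPM filled grey and genes under 5 CPM open. Nearly all points lie left of 0, only Cacna2d3 and Cacnb1 are red, and the genes under 5 CPM have the widest errors.

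The pore-forming calcium alpha1 genes had 10 of 10 negative log2 changes in each knockout group and no call, with medians of -1.16 in KO metastasis and -1.02 in KO primary. The shares over all genes are given above. Cacna1f, Cacna1g, Cacna1i and Cacna1s had their highest level in the high-background control primary 3. Without the high-background libraries Cacna1s turned positive, at 0.22 (SE 1.6) in KO metastasis and 0.11 (SE 1.42) in KO primary, and the other alpha1 genes stayed negative. Cacna1d codes for an L-type channel that opens at more negative voltages than its relatives. Among the members it follows Cacna2d3 on chromosome 14 (30039939 to 30491455), with a gap of 318 kb. It stood at 5.67, 6.10, 11.4 and 14.4 CPM across KO metastasis 3, 4, 6 and 7, at 6.64, 5.66, 6.45 and 17.4 CPM across the same numbers of KO primary, and at 17.1, 24.6, 26.9, 18.8 and 23.3 CPM across control primary 3 to 7. The 3 highest knockout libraries and the lowest control library were the 4 high-background libraries, and KO primary 7 overlapped control primary 3. The log2 change was -1.24 (SE 0.369, edgeR adjusted p = 0.0982) in KO metastasis and -1.30 (SE 0.369, edgeR adjusted p = 0.0847) in KO primary. Its exons share 589 bases with Chdh on the opposite strand, and it is not known whether the counting used strand.

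Cacna1c (chromosome 6, 118587240 to 119196418), the other L-type pore of brain, stood at 8.4, 6.55, 12.8 and 14.1 CPM across KO metastasis 3, 4, 6 and 7, at 7.42, 9.11, 9.02 and 18.0 CPM across the same numbers of KO primary, and at 16.2, 18.0, 25.7, 15.2 and 20 CPM across control primary 3 to 7. The metastases lay wholly below the controls, and KO primary 7 lay among the controls. Its log2 change was -0.86 (SE 0.298, edgeR adjusted p = 0.168) in KO metastasis and -0.81 (SE 0.297, edgeR adjusted p = 0.204) in KO primary. Cacna1b (chromosome 2, 24603887 to 24763152), the N-type channel of presynaptic terminals, stood at 33.8, 15.4, 20.4 and 40.3 CPM across KO metastasis 3, 4, 6 and 7, at 10.7, 8.79, 14.5 and 43.6 CPM across the same numbers of KO primary, and at 32.2, 53.9, 55.8, 47.7 and 60.2 CPM across control primary 3 to 7. KO primary 3, 4 and 6 were lower than all other libraries, and KO primary 7 sat between control primary 3 and the other controls. The log2 change was -0.86 (SE 0.433, edgeR adjusted p = 0.407) in KO metastasis and -1.37 (SE 0.440, edgeR adjusted p = 0.134) in KO primary. Cacna1a, the P/Q-type channel in which mutations cause ataxia, averaged 28.4 ± 5.23 CPM in KO metastasis, 34.3 ± 7.91 CPM in KO primary and 38.5 ± 7.13 CPM in control primary libraries, and the 3 groups overlapped. The R-type gene Cacna1e averaged 8.77 ± 6.00, 9.99 ± 5.68 and 18.5 ± 7.81 CPM in KO metastasis, KO primary and control primary. The T-type genes Cacna1g, Cacna1h and Cacna1i, the retinal Cacna1f and the muscle gene Cacna1s had group means between 0.135 and 2.67 CPM.

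The gabapentin-binding subunit gene Cacna2d1 was the most abundant pore partner, and its groups overlapped with all libraries in. Cacna2d1 (chromosome 5, 15934691 to 16374511) stood at 182, 179, 207 and 246 CPM across KO metastasis 3, 4, 6 and 7, at 283, 212, 206 and 261 CPM across the same numbers of KO primary, and at 170, 361, 265, 229 and 260 CPM across control primary 3 to 7. Its log2 change was -0.34 (SE 0.192, edgeR adjusted p = 0.494) in KO metastasis and -0.10 (SE 0.191, edgeR adjusted p = 0.956) in KO primary, against -1.93 and -1.61 for Cacna2d3 of the same family. The overlap of KO metastasis with the controls came from control primary 3 and KO metastasis 7. Without the high-background libraries KO metastasis stood at 179 and 182 CPM, wholly below the 229 to 361 CPM of control primary, and the log2 change was -0.62 (SE 0.211, edgeR adjusted p = 0.106), while KO primary still overlapped the controls at 206 to 283 CPM with a change of -0.24 (SE 0.182, edgeR adjusted p = 0.471). Whether these changes differ between the 2 genes was not tested. Cacna2d2 and Cacna2d4 had group means of at most 1.40 CPM.

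Of the other beta subunit genes, Cacnb3 (chromosome 15, 98630840 to 98644529), which pairs with N-type channels in brain, stood at 21.0, 13.4, 10 and 16.4 CPM across KO metastasis 3, 4, 6 and 7, at 10.9, 8.65, 7.91 and 18.6 CPM across the same numbers of KO primary, and at 22.6, 20.8, 11.9, 13.2 and 25.1 CPM across control primary 3 to 7. All 3 groups overlapped, with edgeR adjusted p = 0.824 in KO metastasis and 0.333 in KO primary. Cacnb4, the beta subunit lost in the ataxic lethargic mouse, averaged 5.39 ± 0.780 CPM in KO metastasis, 3.78 ± 1.17 CPM in KO primary and 8.92 ± 3.77 CPM in control primary libraries. The log2 change was -0.73 (SE 0.312, edgeR adjusted p = 0.295) in KO metastasis and -1.24 (SE 0.317, edgeR adjusted p = 0.0535) in KO primary, and KO primary 7 at 5.42 CPM was above the lowest control at 4.99 CPM. Its exons share 1433 bases with A430018G15Rik on the opposite strand. Cacnb2 averaged 2.45 ± 0.623, 2.4 ± 1.82 and 4.24 ± 2.06 CPM in KO metastasis, KO primary and control primary.

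The gamma genes had the smallest median change of the 6 subunit classes in both comparisons with control primary. Cacng2 (chromosome 15, 77991748 to 78120028), which is mutated in the ataxic stargazer mouse, stood at 134, 59.7, 125 and 126 CPM across KO metastasis 3, 4, 6 and 7, at 122, 105, 148 and 157 CPM across the same numbers of KO primary, and at 164, 108, 129, 148 and 149 CPM across control primary 3 to 7. The groups overlapped, and KO metastasis 4 lay below every other library. The log2 change was -0.33 (SE 0.219, edgeR adjusted p = 0.601) in KO metastasis and -0.07 (SE 0.218, edgeR adjusted p = 0.974) in KO primary. Over the 6 tested gamma genes the median log2 change was -0.39 in KO metastasis and -0.11 in KO primary, where 4 of 6 were negative and Cacng3 and Cacng5 were positive. Cacng8, an AMPA receptor protein of forebrain, was between 1.90 and 2.44 CPM in KO metastasis and between 1.58 and 2.25 CPM in KO primary libraries, all below the 2.83 to 4.80 CPM of control primary. It was not called (edgeR adjusted p = 0.227 in KO metastasis and 0.117 in KO primary). Cacng5 stood at 6.86, 20.8, 25.9 and 12.2 CPM in KO metastasis 3, 4, 6 and 7, against 66.5, 36.0, 42.8 and 20.2 CPM in KO primary 3, 4, 6 and 7. It overlapped between them by KO primary 7 alone, and it was the 1 member with an unadjusted p below 0.05 between these groups (edgeR log2 change -1.33, SE 0.468, unadjusted p = 0.0132).

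Among the sodium channel pores, Scn3a lay lower in both knockout groups than in every control library, and Scn8a overlapped the controls. Scn3a, the channel of the embryonic brain (chromosome 2, 65457118 to 65567627), stood at 8.73, 4.93, 13.5 and 15.5 CPM across KO metastasis 3, 4, 6 and 7, at 4.14, 3.24, 5.90 and 17.0 CPM across the same numbers of KO primary, and at 20.6, 24.1, 25.5, 17.9 and 22.6 CPM across control primary 3 to 7. Every knockout library lay below every control library, and the highest of each knockout group were high-background libraries. The log2 change was -1.05 (SE 0.445, edgeR adjusted p = 0.287) in KO metastasis and -1.55 (SE 0.452, edgeR adjusted p = 0.0940) in KO primary, so it was called in neither. Scn8a (chromosome 15, 100869858 to 101045938), the channel of mature axons, stood at 96.8, 57.8, 81.1 and 80.3 CPM across KO metastasis 3, 4, 6 and 7, at 72.8, 73.1, 66.1 and 114 CPM across the same numbers of KO primary, and at 72.0, 98.8, 139, 95.7 and 103 CPM across control primary 3 to 7. These groups overlapped, and the log2 change was -0.36 (SE 0.212, edgeR adjusted p = 0.510) in KO metastasis and -0.32 (SE 0.212, edgeR adjusted p = 0.615) in KO primary. The overlap of KO primary with the controls came from KO primary 7 and control primary 3. Without the high-background libraries Scn8a stood at 66.1 to 73.1 CPM in KO primary against 95.7 to 139 CPM in control primary (log2 change -0.61, SE 0.193, edgeR adjusted p = 0.0837), and at 57.8 and 96.8 CPM in KO metastasis (log2 change -0.49, SE 0.221, edgeR adjusted p = 0.213). Limma voom with all libraries called it lower in KO primary (log2 change -0.46, adjusted p = 0.0358). Scn1a, the channel of inhibitory neurons, averaged 2.4 ± 1.94 CPM in KO metastasis, 2.65 ± 1.12 CPM in KO primary and 4.49 ± 1.40 CPM in control primary libraries. Scn9a, a channel of sensory neurons, averaged 0.760 ± 0.886 CPM in KO metastasis, 0.554 ± 0.939 CPM in KO primary and 1.70 ± 1.77 CPM in control primary libraries.

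No sodium beta gene was called. Scn3b, the leading one (chromosome 9, 40269217 to 40291618), stood at 9.55, 11.8, 10.6 and 13.8 CPM across KO metastasis 3, 4, 6 and 7, at 14.6, 11.2, 7.78 and 15.2 CPM across the same numbers of KO primary, and at 14.4, 21.0, 14.1, 17.3 and 18.1 CPM across control primary 3 to 7. The metastases lay wholly below the controls, and KO primary overlapped them by 2 libraries. Its log2 change was -0.57 (SE 0.215, edgeR adjusted p = 0.219) in KO metastasis and -0.48 (SE 0.214, edgeR adjusted p = 0.338) in KO primary. Scn2b averaged 0.718 ± 0.697 CPM in KO metastasis, 0.556 ± 0.709 CPM in KO primary and 2.49 ± 1.68 CPM in control primary libraries.

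Metastases and primary tumours of the knockout were also compared with each other, which asks whether the channel genes change with spread to the spine. None of 37 channel genes was called by edgeR or by DESeq2, where edgeR called 0.00449% of all genes in either direction. Of the 37, 24 had a negative log2 change with a median of -0.19, and all genes had a median of -0.00. This direction turned without KO primary 7, where 11 of 37 were negative with a median of 0.32, without KO metastasis 3 (16 of 37, median 0.04), without KO metastasis 4 (17 of 37, median 0.08) and by limma voom (10 of 37, median 0.76). Without all 4 high-background libraries it was 22 of 32 with a median of -0.31. No member's libraries lay wholly apart, where 1.72% of all genes did in either direction. Cacna2d3 differed by -0.32 (SE 0.382) and Cacnb1 by -0.19 (SE 0.206), changes smaller than their errors. At an unadjusted p below 0.05 there was 1 member (Cacng5), and 720 of all genes.

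The high-background libraries bear on the counts above against control primary. Of the 37 tested members, KO primary 7 held the highest KO primary level for 30 (81.1%), where it did so for 43.2% of all tested genes. Scn3a per kb reached 1.37 CPM per kb in KO primary 7, against 0.26 to 0.473 in the other KO primary libraries. Cacna1b reached 4.39 CPM per kb there, against 0.884 to 1.46. The mean receptor gene stood at 0.129 CPM per kb in KO primary 7 and at 0.292 in control primary 3. In control primary 3, Cacna1b was the lowest of its group at 3.24 CPM per kb, and Scn3a stood at 1.66. The source of the higher levels in KO primary 7 was not tested. Without the 4 libraries, 2 KO metastasis, 3 KO primary and 4 control primary libraries and 32 members were left. Then 7 of 32 members were lower in KO metastasis (among them Cacna1c, Cacna1d, Cacna2d3, Cacnb1, Scn1a and Scn3a), where 3.43% of all genes were lower. In KO primary 8 of 32 were lower (among them Cacna1b, Cacna1c, Cacna1d, Cacna2d3, Cacnb1, Cacnb4 and Scn3a), where 4.35% of all genes were lower. None was called between KO metastasis and KO primary.

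The values behind these calls were far apart. Without the high-background libraries Cacna1d stood at 5.67 and 6.10 CPM in KO metastasis and 5.66 to 6.64 CPM in KO primary, against 18.8 to 26.9 CPM in control primary (edgeR log2 change -1.98, SE 0.251, adjusted p = 0.00177 in KO metastasis and -1.89, SE 0.213, adjusted p = 6.37e-04 in KO primary). Scn3a stood at 4.93 and 8.73 CPM in KO metastasis and 3.24 to 5.90 CPM in KO primary, against 17.9 to 25.5 CPM in control primary (edgeR adjusted p = 0.0172 and 0.00128). Cacna1b stood at 8.79 to 14.5 CPM in KO primary, against 47.7 to 60.2 CPM in control primary (edgeR log2 change -2.25, SE 0.280, adjusted p = 0.00108), and was not called in KO metastasis at 15.4 and 33.8 CPM. Cacna2d3 kept its call in both comparisons (edgeR adjusted p = 0.0130 in KO metastasis and 0.0151 in KO primary). KO primary 7 by itself moved the KO primary count the most: without it 7 members were lower, and without control primary 3 there were 4.

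Other tests called more channel genes and more genes in all. DESeq2 called 5 members lower in KO metastasis (among them Cacna1d, Cacna2d3, Cacnb1 and Cacng8) where 5.17% of all genes were lower, and 8 lower in KO primary (among them Cacna1b, Cacna1d, Cacna2d3, Cacnb1, Cacnb4, Cacng8 and Scn3a) where 5.80% were lower. Limma voom with quality weights, which gives less weight to libraries that vary more, called 6 members in KO metastasis, 4 lower (Cacna1b, Cacna1d, Cacna2d3 and Cacnb1) and 2 higher (Scn4a and Scn4b), where 17.2% of all genes changed in either direction. It called 12 lower in KO primary, where 14.7% of all genes changed. Cacna2d3 and Cacnb1 were lower in both comparisons by both of these tests. In the metastases, Scn4a and Scn4b had reads in the high-background KO metastasis 6 and 7 alone. Scn4a stood there at 0.527 and 0.806 CPM and Scn4b at 1.44 and 1.61 CPM. Control primary 3 stood higher, at 1.48 and 4.60 CPM, and the other controls had 0 counts. By edgeR neither gene differed in KO metastasis (unadjusted p = 0.939 and 0.907).

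A further group of channel genes had most of their CPM in the high-background libraries. Some had reads elsewhere too, such as Cacna2d4 with 63 counts over 8 other libraries and Cacna1s with 50 over 7. Over 80% of the summed CPM of 8 genes came from those 4 libraries, which holds for 7 of 37 tested members (18.9%) and 10.7% of all tested genes. These were the sensory neuron channels Scn10a and Scn11a, the skeletal muscle channels Scn4a and Cacna1s, Cacng6, a relative of the muscle subunit gene Cacng1, the atypical sodium channel Scn7a, the beta subunit gene Scn4b and the retinal alpha2delta gene Cacna2d4. Their summed level was 7.52 and 5.84 CPM in KO metastasis 6 and 7, 11.2 in KO primary 7 and 29.1 CPM in control primary 3, and 0.0359 to 1.38 CPM in the other 9 libraries. The genes were chosen by their share in these 4 libraries, so this difference was set by the choice. Scn4a had 119 counts in the 4 libraries and 0 in the other 9, where a count of 0 allows at most 0.0781 to 0.114 CPM per library, for counting error only. The order of the 4 libraries followed their receptor level, and the median of the 8 genes per kb was 0.622 CPM in control primary 3, where the median receptor gene was at 0.169. Skeletal muscle markers summed to 2.73 to 9.59 CPM in KO metastasis, 2.76 to 10.1 CPM in KO primary and 3.15 to 21.3 CPM in control primary libraries over a list of 8. Sensory neuron markers summed to 30.0 to 76.1 CPM, 17.3 to 29.6 CPM and 3.73 to 10.3 CPM in KO metastasis, KO primary and control primary libraries over a list of 8. Pou4f1, a transcription factor, made up most of that sum in the knockout groups, at 25.9 to 73.5 CPM in KO metastasis and 16.4 to 25.6 CPM in KO primary against 1.71 to 8.94 CPM in control primary. It was the called gene of the list, and 4 of the 7 tested sensory markers had negative log2 changes in each comparison with control primary. The part of either cell type in these 8 channel genes was not tested.

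**Figure D4:**
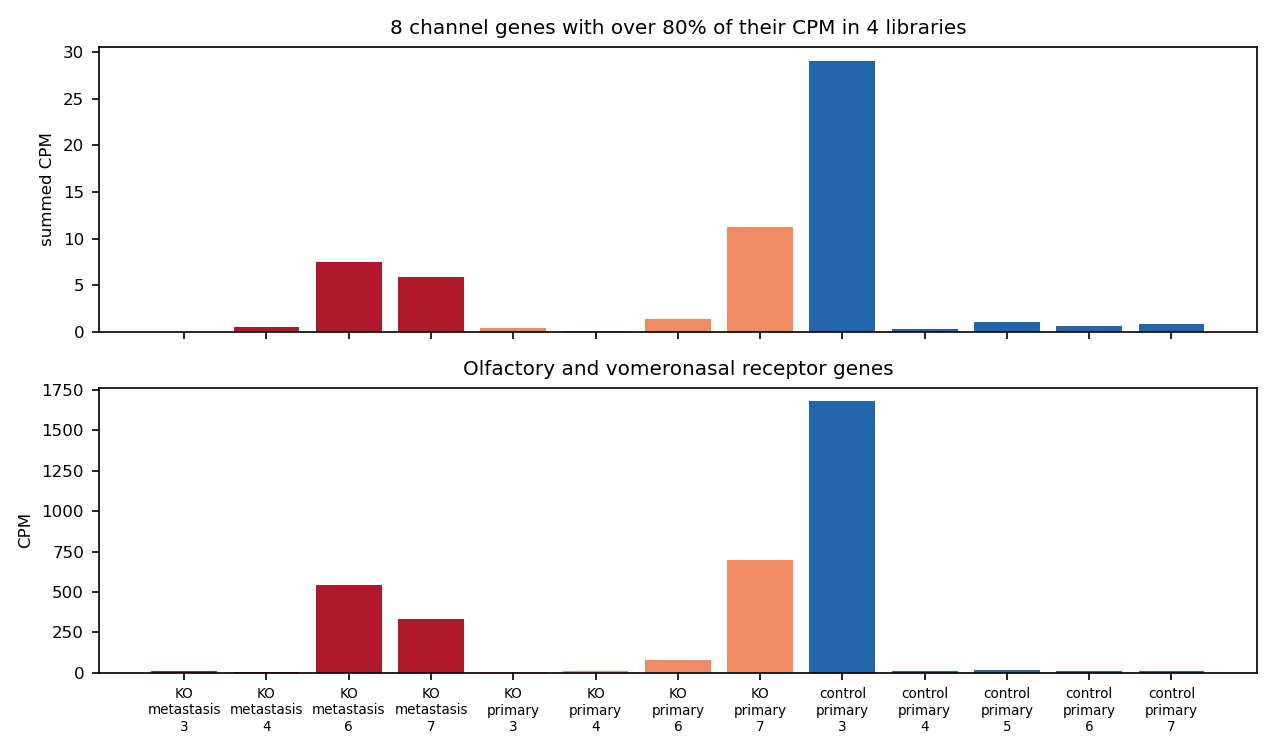
Summed CPM of the 8 channel genes with over 80% of their CPM in 4 libraries (top) and CPM of olfactory and vomeronasal receptor genes (bottom) in every library, KO metastasis then KO primary then control primary. Control primary 3 is highest in both at 29.1 and 1680 CPM, followed by KO primary 7, KO metastasis 6 and KO metastasis 7.

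Several members follow each other on GRCm38 with no other member between them, and the runs differed in level along their length. Genes outside the rule were not sought in the gaps. On chromosome 2, Scn3a, Scn1a, Scn9a and Scn7a follow each other among the members, with means of 1.13, 0.294, 0.0827 and 0.131 CPM per kb. Scn3a lies 703 kb from Scn1a, and the next gaps are 39.2 and 38.5 kb. On chromosome 9, Scn10a and Scn11a lay at 0.0593 and 0.0922 CPM per kb, and on chromosome 11, Cacng1 lay at 0.0580, 15.8 kb from Cacng4 at 5.51 and Cacng5 at 7.35 CPM per kb. On chromosome 14, Cacna2d3 and Cacna1d lay at 1.13 and 1.12 CPM per kb, with the negative changes given above. Exons of 10 members share bases with a gene on the opposite strand, so the reads of such partners cannot be told apart where the counting did not use strand.

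The proteins that place and regulate these channels were read from a list of 55 genes, of which 53 were tested. In KO metastasis 6 of 53 were lower and none higher, where 2.02% of all genes were lower, and in KO primary 8 were lower and 1 higher, where 1.78% of all genes were lower and 2.93% changed in either direction. The median log2 change over the 53 was -0.40 in KO metastasis and -0.32 in KO primary, against -0.04 and -0.05 over all genes. Of the 17 sodium channel partners, 5 were lower in each comparison: Fgf11, Nfasc, Cntn1 and Unc79 in both, Ank2 in KO metastasis and Cntn2 in KO primary. Nfasc (neurofascin) and Cntn1 (contactin) are adhesion proteins that gather sodium channels at the axon initial segment and the node. Cntn1 stood at 5.23 to 11.0 CPM in KO metastasis and 4.57 to 13.1 CPM in KO primary, against 24.6 to 46.9 CPM in control primary libraries (edgeR log2 change -2.27, SE 0.341, adjusted p = 0.00274 and -1.91, SE 0.335, adjusted p = 0.00689). Nfasc stood at 8.94 to 15.6 CPM in KO metastasis and 9.74 to 15.7 CPM in KO primary, against 22.2 to 51.1 CPM in control primary libraries (edgeR adjusted p = 0.00798 and 0.00693).

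Fgf11, a fibroblast growth factor homologue that binds the tail of sodium channels, was at 0.646 to 0.849 CPM in KO metastasis and 0.260 to 1.39 CPM in KO primary, against 2.77 to 5.10 CPM in control primary libraries (edgeR adjusted p = 0.0177 and 0.0159). Unc79, part of the sodium leak channel complex, averaged 8.54 ± 3.64 CPM in KO metastasis and 8.55 ± 5.49 in KO primary against 24.8 ± 2.53 CPM in control primary (edgeR adjusted p = 0.0332 and 0.0345). Ank2, an ankyrin that anchors channels to the cytoskeleton, averaged 101 ± 9.93 CPM in KO metastasis against 185 ± 53.1 CPM in control primary (edgeR adjusted p = 0.0291). For Ank2, control primary 3 at 104 CPM lay among the metastases, which ran from 87.8 to 111 CPM. Cntn2, a contactin of differentiating granule cells, averaged 99.7 ± 29.8 CPM in KO primary against 578 ± 254 CPM in control primary (edgeR adjusted p = 0.00895). In KO metastasis it spread from 96.4 to 460 CPM and was not called (edgeR adjusted p = 0.175).

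Of 22 tested calcium channel partners, Camk2d, a calmodulin kinase subunit, was lower in KO metastasis at 56.5 ± 5.38 CPM and in KO primary at 51.5 ± 7.27 CPM against 108 ± 36.3 CPM in control primary (edgeR adjusted p = 0.0387 and 0.0210). Control primary 3 at 55.9 CPM lay among the knockout libraries. Rrad, a small GTPase that inhibits calcium channels, was lower in KO primary at 1.11 ± 0.795 CPM against 10.3 ± 3.26 CPM in control primary (edgeR adjusted p = 0.00443). It averaged 2.74 ± 0.735 CPM in KO metastasis without a call (edgeR adjusted p = 0.0529). Calm2, a calmodulin gene, was the called gene that rose, to 1785 ± 367 CPM in KO primary against 1137 ± 132 CPM in control primary (edgeR adjusted p = 0.0235). For Calm2, KO primary 7 at 1244 CPM lay below control primary 3 at 1331 CPM. Among 14 genes of calcium release and export, the plasma membrane pump Atp2b2 was lower in KO primary at 51.8 ± 32.4 CPM against 158 ± 44.0 CPM in control primary (edgeR adjusted p = 0.0214). For Atp2b2, KO primary 7 at 99.1 CPM lay above control primary 3 at 94.5 CPM. None of the 53 was called between KO metastasis and KO primary, with 5 at an unadjusted edgeR p below 0.05.

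**Figure D5:**
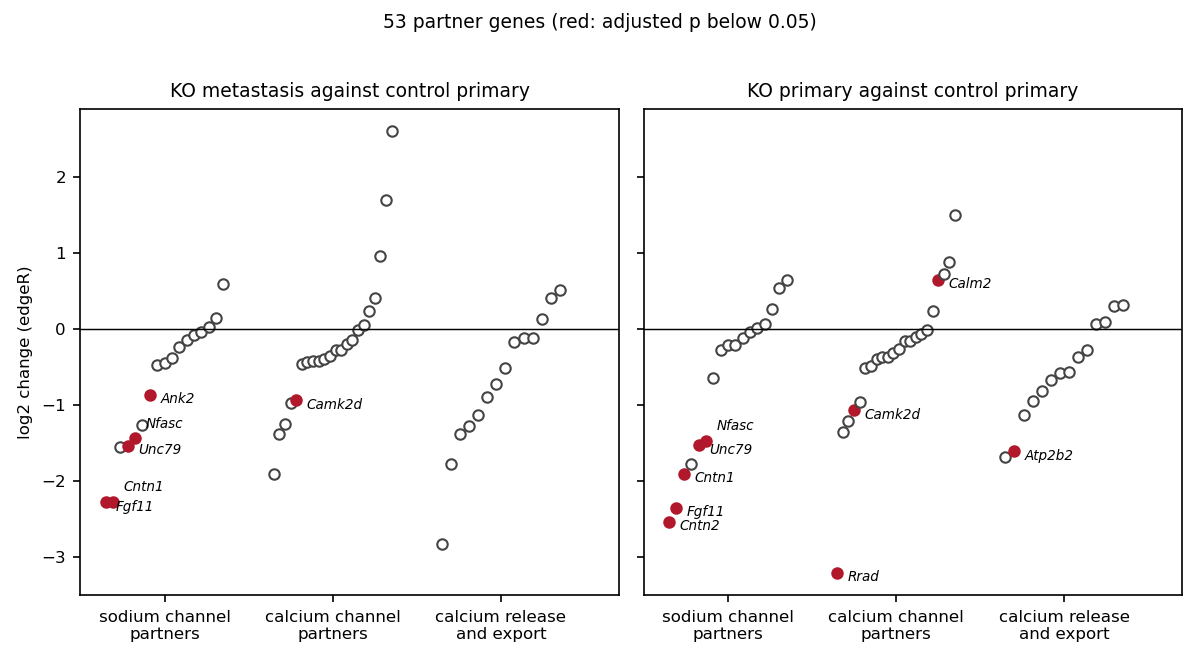
Fitted log2 change of 53 partner genes in 3 classes for KO metastasis (left) and KO primary (right) against control primary, each point a gene ordered by its change within its class and red where called. The called genes lie below 0, with 5 sodium channel partners in each panel, except Calm2 in KO primary.

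Some lists of cell type markers also differed between the groups. The 10 granule neuron markers summed to 712 to 1083 CPM in KO metastasis and 687 to 809 CPM in KO primary, against 1350 to 2157 CPM in control primary libraries, so every knockout library lay below every control. Of these 10, 5 were lower in KO metastasis (Neurod1, Tubb3, Cbln3, Fat2 and Snap25) and 3 in KO primary (Neurod1, Tubb3 and Snap25). Negative log2 changes were found for 9 of the 10 in KO metastasis and 8 in KO primary. Most of the sum was Neurod1, Tubb3, Snap25 and Rbfox3. Rbfox3 was not lower, at 224 to 310 CPM in KO metastasis and 236 to 288 CPM in KO primary against 166 to 239 CPM in control primary. The 7 oligodendrocyte precursor markers summed to 638 to 756 CPM in KO metastasis, 718 to 1148 CPM in KO primary and 1097 to 1524 CPM in control primary libraries. The precursor list lay wholly lower in KO metastasis, and KO primary overlapped the controls by 1 library. Of that list Pdgfra, Cspg4, Gpr17 and C1ql1 were called lower in KO metastasis, and C1ql1 in KO primary. Negative log2 changes were found for 6 of the 7 in KO metastasis and 5 in KO primary. The largest part of the sum was C1ql1, at 347 to 463 CPM in KO metastasis, 417 to 610 in KO primary and 641 to 1085 in control primary. Olig2 was not lower, at 33.5 to 108 CPM in KO metastasis and 37 to 165 in KO primary against 25.6 to 85.2 in control primary. Of 7 inhibitory interneuron markers the sums were 146 to 219, 129 to 221 and 194 to 326 CPM in KO metastasis, KO primary and control primary, with none called and Slc32a1 at 0 in KO metastasis and in control primary. Nearly all of each sum was Lhx1, at 144 to 219, 129 to 216 and 186 to 325 CPM in the same order of groups. No other marker of that list exceeded 4.72 CPM in any library. Of 8 Purkinje cell markers the sums were 53.8 to 147, 56.9 to 84.9 and 35.2 to 53.9 CPM, and of 7 astrocyte and Bergmann glia markers 320 to 739, 338 to 630 and 408 to 579 CPM, in the same order of groups. The glial list overlapped between the knockout groups and the controls, and Aqp4 of that list was called lower in KO primary. Most of the Purkinje sum was Pvalb and Itpr1, and Pvalb was the called gene of that list, higher in both knockout groups at 25.1 to 116 CPM in KO metastasis and 33.2 to 61.8 CPM in KO primary against 8.11 to 23.4 CPM in control primary. The other 5 tested Purkinje markers had negative log2 changes in both comparisons and none was called. Mature oligodendrocyte markers summed to 161 to 1770 CPM in KO metastasis, 52.1 to 81.0 CPM in KO primary and 123 to 314 CPM in control primary libraries. The high-background KO metastasis 6 and 7 stood at 1770 and 745 CPM, and KO metastasis 3 and 4 at 161 and 301 CPM. Mbp and Mobp were called higher in KO metastasis than in control primary, and Opalin was called lower in KO primary. Mbp was also called higher in KO metastasis than in KO primary, the 1 gene of all tested that edgeR called there. Microglia and macrophage markers summed to 10.3 to 176, 2.64 to 14.3 and 7.13 to 64.5 CPM in KO metastasis, KO primary and control primary. The high-background KO metastasis 6 and 7 stood at 176 and 138 CPM, and KO metastasis 3 and 4 at 33.7 and 10.3 CPM. In the same order of groups, endothelial and mural markers summed to 8.22 to 14.9, 10.8 to 35.9 and 3.50 to 28.4 CPM. Motor and cholinergic neuron markers summed to 36.8 to 72.4, 42.7 to 72.7 and 23.7 to 53.7 CPM. In the last list Slc5a7 and Isl1 were called higher and Slc18a3 lower in both knockout groups. The endothelial and mural markers Abcc9 and Kcnj8 were called higher in KO primary. Of the granule cell precursor markers, Atoh1 was called higher in both knockout groups and Barhl1 in KO metastasis. The part of any of these cell types in the channel results was not tested.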

How the data were processed

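RNA-seq gene counts of 13 libraries in 3 groups were analysed. The authors deposited raw counts per gene symbol, and the submitters' processing notes name the build mm10 and the tools STAR (2.4), HTSeq (0.6.1) and DESeq2. No annotation release or strand setting is given. The table held 53653 genes, of which 47744 had a count.

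A model over all libraries was fitted in edgeR 4.0.16 (R 4.3.3): filterByExpr (minimum count 10, minimum total 15) kept 22265 genes, counts were TMM-scaled, and quasi-likelihood tests were run on the 3 groups. Adjusted p is Benjamini-Hochberg over all genes tested, with calls below 0.05. The SE is the absolute log2 change divided by the square root of F. Exon lengths and coordinates are from GENCODE M21 (GRCm38), where all 39 members matched. Start regions are from RefSeq.

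Per-library values are given for called members, the member of highest level per kb in each subunit class, and members of at least 5 CPM whose groups did not overlap. Others were chosen after their values were seen. The values of 2 members enter the counts and medians and are not reported here. The members and gene lists were chosen with earlier results of these data known. High background means above 100 receptor CPM. The main edgeR fit was also run on simulated counts with known changes in KO primary. These counts held no high-background libraries and no sex difference, so they cannot tell how the calls depend on those. Alternatives were DESeq2 1.42.0, limma 3.58.1 voom with quality weights, other scaling and filters, a replicate block and leaving out libraries. With no molecular identifiers, limits from counts cover counting error only.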

Additional observations from a re-analysis of the deposited data

Results flagged for a closer look

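In a group of 4 or 5 libraries, a value was marked where its gap to the nearest other library was a larger part of the group's range than 95% of such groups give by chance, so about 5% of groups are marked by chance. Of 111 groups of values, 24 held such a value, and 23 of these lay in high-background libraries, 12 in KO primary 7 and 11 in control primary 3.

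In KO primary 7 the values apart were all the highest of their group. The pore genes of neurons were Cacna1b at 43.6 CPM (8.79 to 14.5 in the other KO primary libraries), Cacna1c at 18.0 CPM (7.42 to 9.11), Cacna1d at 17.4 CPM (5.66 to 6.64), Cacna1i at 2.30 CPM (0 to 0.0529), Scn1a at 4.31 CPM (1.90 to 2.31) and Scn8a at 114 CPM (66.1 to 73.1). The others were Cacna2d4 at 1.63 CPM, Scn4a at 1.00 CPM, Scn4b at 1.52 CPM, Scn7a at 2.49 CPM, Scn9a at 1.95 CPM and Scn11a at 1.54 CPM, where the other KO primary libraries ran from 0 to 0.286 CPM.

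In control primary 3 the values apart were also the highest of their group. They were Cacna1f at 4.26 CPM, Cacna1g at 3.42 CPM, Cacna1s at 4.68 CPM, Cacna2d4 at 5.89 CPM, Scn1a at 6.92 CPM, Scn2b at 5.36 CPM, Scn4a at 1.48 CPM, Scn4b at 4.60 CPM, Scn7a at 5.36 CPM, Scn10a at 3.00 CPM and Scn11a at 3.69 CPM. Among the other controls Scn4a, Scn4b and Scn10a had 0 counts, and Scn1a reached 4.15 CPM.

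The value outside the high-background libraries was Cacng2, the stargazin gene, at 59.7 CPM in KO metastasis 4, the lowest of its group, against 125 to 134 CPM in the other metastases.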

How the results depend on the processing

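The count of called channel genes moved with the setting, and no setting called a channel gene higher except limma voom in KO metastasis. Those were Scn4a and Scn4b, whose KO metastasis reads lay in high-background libraries alone. For KO primary against control primary, 1 member was called as reported. It was 3 with RLE size factors, 3 with totals from before the low count filter (added after the data were seen), 3 with these 2 groups only, 2 with the replicate block, 8 without the high-background libraries, 8 by DESeq2, 12 by limma voom and 0 without the 3 controls with Xist counts (edgeR). Leaving out 1 library gave 0 to 7, with 7 without KO primary 7, 4 without control primary 3, 2 without KO metastasis 3 and 0 without KO primary 3, 4 or 6 or control primary 4 or 5. For KO metastasis, 2 members were called. It was 1 with the replicate block, 0 in the same libraries with no replicate block (added later), 7 without the high-background libraries, 5 by DESeq2, 6 by limma voom and 0 without the Xist controls. Leaving out 1 library gave 1 to 3, with 1 without KO metastasis 3, 4 or 6 or control primary 4 or 7. Between the knockout groups every setting run gave 0, leave-one-out range 0 to 0.

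Of the partner genes, 9 were called in KO primary: 4 with the block, 16 without the high-background libraries, 1 without the Xist controls, 14 by DESeq2 and 22 by limma voom, with 4 to 12 when 1 library was left out. In KO metastasis 6 were called: 1 without the Xist controls, 11 by DESeq2 and 21 by limma voom, with 2 to 10 when 1 library was left out. Between the knockout groups leaving out 1 library gave 0 to 0. Log2 changes near 0 turned positive in KO primary when 1 library was left out for Cacna2d1 (-0.21 to 0.05, highest without control primary 4) and Cacng2 (-0.15 to 0.03, with 0.00 without control primary 3 and 0.03 without KO primary 4), and Cacng2 was at 0.05 without the Xist controls. The cause of these shifts was not tested. The 3 controls with Xist counts leave 2 controls when removed, control primary 3 and 4, of which control primary 3 is a high-background library. In that fit edgeR called 0.491% of all 28131 genes tested in KO primary, against 2.93% of all genes as reported. Fewer controls and the sex of the controls cannot be told apart there.

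Libraries of the groups share numbers. For numbers 3, 4, 6 and 7 the deviations of KO metastasis and KO primary correlated at 0.356, 0.488, -0.005 and 0.675, and those of KO primary and control primary at -0.528, 0.272, 0.038 and -0.382, and not every library correlated best with its own number. The numbers were therefore not taken to pair them. Standard errors reached 2.37 on the log2 scale for members under 5 CPM and 0.541 for members of at least 5 CPM, which limits the calls among the lower ones.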
